A study of Mus musculus with 10 samples.

Results

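The C-type lectin receptors of myeloid cells were examined in mouse peritoneal macrophages, as 9 receptor genes (Clec4e, Clec4d, Clec4n, Clec7a, Clec5a, Clec4a2, Clec4a3, Clec4a1 and Clec12a) together with Card9, an adaptor downstream of the activating ones. The genes were chosen by name, and their rows were taken from the count table by NCBI gene identifier. All 10 were found among 39488 rows, of which 23382 carried an NCBI gene identifier, and all 10 passed the filter on low counts with at least 105 counts in every library, as part of 12654 genes that passed in all. The libraries, 5 control and 5 ox-LDL, were made from macrophages that had been elicited with thioglycollate and collected on the third day from wild-type C57BL/6 mice aged 8 weeks. By the labels, the ox-LDL cells received lipopolysaccharide (LPS) at 100 ng/ml and then oxidized low-density lipoprotein (ox-LDL) at 100 µg/ml for 16 h, and the controls were untreated. A second field of the labels names ox-LDL for every sample, controls included, and the series' design text mentions LPS priming without limiting it to a group. The treatment labels were followed here, but whether the controls were primed is not settled. No library is labelled with LPS alone or ox-LDL alone, so the effects of both agents cannot be told apart by these labels. The replicates are described as biological, but whether each came from its own mouse is not stated, so the p-values measure the spread between these libraries.

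C-type lectin receptors are surface proteins through which macrophages sense glycans and glycolipids of fungi and mycobacteria, and some of them also sense products of dying cells. Activating members signal through an immunoreceptor tyrosine-based activation motif (ITAM), carried by the receptor itself or by a partner chain such as FcRγ (Fcer1g) or DAP12 (Tyrobp), which recruits the kinase Syk and, through the Card9, Bcl10 and Malt1 complex, activates NF-kB. Inhibitory members carry an inhibitory motif (ITIM) in their own tail and recruit phosphatases.

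Of the 10 genes, 2 rose (Clec4e and Clec4n) and 2 fell (Clec4a2 and Clec4a3) at an adjusted p below 0.01 in edgeR's quasi-likelihood test. Among all 12654 genes tested, 9.40% were called higher and 5.35% lower, or 14.7% in either direction. The other 6 did not pass, although 6 of the 10 genes had an adjusted p below 0.05, against 26.6% of all genes. All 4 called genes also had an absolute log2 fold change above 2, which 6.71% of all genes reached together with the adjusted p. The levels, as CPM (counts scaled to a common library size after TMM normalization), did not overlap between the groups for 6 of the 10 genes, against 20.7% of all genes. Of these, 3 were higher (Clec4d, Clec4e and Clec4n, against 11.6% of all genes) and 3 were lower (Clec4a2, Clec4a3 and Card9, against 9.11%). The log2 fold changes ran from -3.23 to 7.05 with a median of -0.70, and the median of all genes was 0.10. Fewer cells of a type and less RNA per cell cannot be told apart in such bulk libraries.

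**Figure D1:**
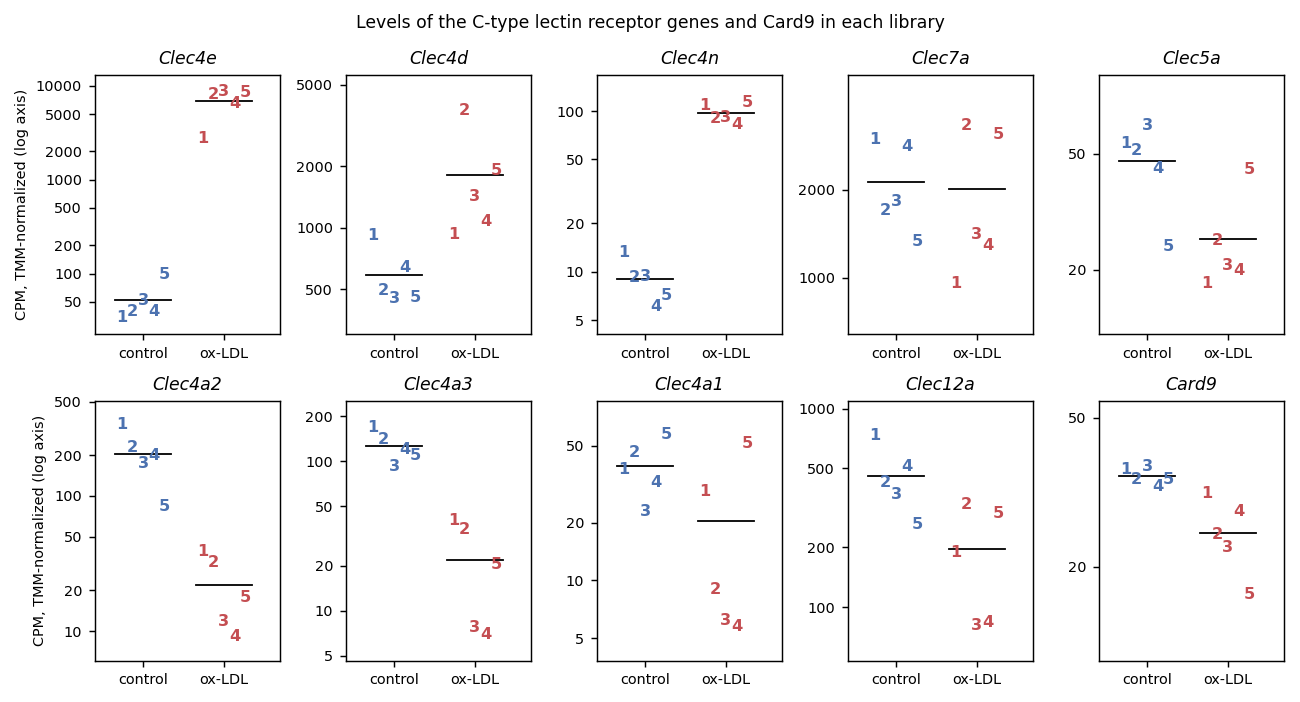
TMM-normalized CPM (log axis, a separate scale in each panel) of the 9 receptor genes and Card9 in control (blue) and ox-LDL (red) libraries. Each digit is the replicate number of 1 library and each black line is the group mean (n = 5). Clec4e and Clec4n stand higher in every ox-LDL library than in any control, Clec4a2 and Clec4a3 stand lower, and the groups overlap for Clec7a.

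By the annotation of NCBIM37, the same assembly as mm9, 6 of the receptors lie among 9 coding genes in a cluster of 368024 bases on chromosome 6. In the order of the chromosome these members are Clec4a1 (122871866 to 122884637), Clec4a3 (122902533 to 122919893), Clec4a2 (123056446 to 123094017), Clec4n (123179861 to 123197039), Clec4d (123212125 to 123225286) and Clec4e (123231807 to 123239889). Clec4e is on the minus strand, the other 5 are on the plus strand, and the 3' ends of Clec4d and Clec4e lie 6521 bases apart. The members nearest one end of the cluster (Clec4n, Clec4d and Clec4e) had positive log2 fold changes, and those nearest the other (Clec4a1, Clec4a3 and Clec4a2) had negative ones. Those of Clec4d (adjusted p = 0.0114) and Clec4a1 (adjusted p = 0.246) did not pass 0.01 in edgeR's test. Clec5a, Clec12a and Clec7a lie elsewhere on chromosome 6, and Card9 lies on chromosome 2, where it overlaps the antisense lincRNA gene Gm13562. Whether the counts used the strand is not given in the sources used here.

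Promoter windows from RefSeq (GRCm38.p6), from 250 bases before to 50 bases after the start of a gene, were matched for 9 of the 10 genes, and Clec4n was not matched. The windows of Clec4e and Clec4d are shown because these neighbours encode partner proteins, and that of Clec12a because it was the other member with a C/EBP match. Capitals mark matches on either strand to TTGCNNAA, the letters searched for C/EBP factors, and to GAGGAA, the letters searched for PU.1. The windows are chr6:123289822-123290121 on the minus strand for Clec4e, chr6:123261857-123262156 on the plus strand for Clec4d and chr6:129349994-129350293 on the plus strand for Clec12a, each written 5' to 3'.
Clec4e: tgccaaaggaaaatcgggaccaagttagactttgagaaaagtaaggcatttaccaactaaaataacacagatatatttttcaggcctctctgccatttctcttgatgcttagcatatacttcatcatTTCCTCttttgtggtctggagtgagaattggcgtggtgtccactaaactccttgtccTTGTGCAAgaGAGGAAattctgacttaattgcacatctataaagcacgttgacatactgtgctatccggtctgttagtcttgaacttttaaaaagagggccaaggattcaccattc
Clec4d: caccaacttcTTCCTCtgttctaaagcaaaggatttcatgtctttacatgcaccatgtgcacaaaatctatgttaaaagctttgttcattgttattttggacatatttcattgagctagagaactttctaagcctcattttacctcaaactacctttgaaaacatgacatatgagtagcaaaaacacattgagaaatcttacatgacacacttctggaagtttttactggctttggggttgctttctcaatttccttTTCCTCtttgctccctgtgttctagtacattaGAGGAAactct
Clec12a: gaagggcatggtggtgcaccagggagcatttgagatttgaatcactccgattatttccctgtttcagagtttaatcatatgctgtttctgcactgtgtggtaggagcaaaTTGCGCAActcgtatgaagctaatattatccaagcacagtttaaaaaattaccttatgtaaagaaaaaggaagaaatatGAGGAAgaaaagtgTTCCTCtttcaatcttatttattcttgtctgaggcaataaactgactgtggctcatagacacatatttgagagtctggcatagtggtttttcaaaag

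The C/EBP letters were found in the windows of 2 of the 9 genes with a window, against 10.8% of 32851 windows in the whole table. With the first transcribed base numbered 1, the match began at position -66 in Clec4e and at position -140 in Clec12a, in both cases without overlap with a PU.1 match. The PU.1 letters were found in 7 of the 9 genes, all but Clec4a2 and Card9, and in 28.3% of all windows. TGANTCA, searched for AP-1, was present in Clec4a2 and Clec12a and in 7.81% of all windows. The NF-kB consensus was matched in 0 members and 8.46% of all windows. These matches describe letters and are not evidence of binding.

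Clec4e encodes Mincle, a receptor for mycobacterial cord factor and for a ribonucleoprotein released by dead cells. Its CPM in control libraries 1 to 5 were 33.6, 39.6, 51.0, 39.6 and 97.4, and in ox-LDL libraries 1 to 5 they were 2771, 8119, 8796, 6509 and 8462. Every ox-LDL library was far above every control, control library 5 was the highest of its group, and ox-LDL library 1 was the lowest of its group. The mean rose from 52.2 ± 26.0 to 6931 ± 2486 CPM (SD, n = 5), a fitted difference of 133-fold (log2 fold change 7.05, SE 0.51, adjusted p = 5.62e-06 in edgeR's quasi-likelihood test). This log2 fold change ranked 38 among the 1189 genes called higher. The estimated counts behind these values ran from 608 to 180364 per library.

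Clec4d encodes MCL, which pairs with Mincle and with the FcRγ chain and lies next to Clec4e in the genome. Control libraries 1 to 5 held 910.4, 492, 449, 634 and 455 CPM, and ox-LDL libraries 1 to 5 held 921, 3750.5, 1415, 1067 and 1900.0 CPM. The groups did not overlap, but control library 1 and ox-LDL library 1 nearly met, and ox-LDL library 2 stood well above the others of its group. The means were 588 ± 195 and 1811 ± 1148 CPM, and the log2 fold change of 1.62 (SE 0.41) had an adjusted p of 0.0114, which missed the 0.01 threshold. Without ox-LDL library 2 it was 1.13 (adjusted p = 0.00761), and without ox-LDL library 1 it was 1.79 (adjusted p = 0.00661), both from the same edgeR fit on 9 libraries. In the other fits that left out 1 library it did not pass 0.01, with an adjusted p of up to 0.0342. After a correction for how the levels of each library depended on gene length, it was 1.63 (adjusted p = 0.000247). Clec4d stayed uncalled in 13 of 24 alternatives in all. Across genes, the deviation from the mean level was related to gene length in 9 of the 10 libraries, with a Spearman rho from -0.66 in ox-LDL library 2 and -0.60 in control library 1 to 0.54 in ox-LDL library 4. The part of this relation in the Clec4d value was not tested.

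Clec4n encodes Dectin-2, a receptor for fungal mannans that also signals through FcRγ. Its levels in control libraries 1 to 5 were 13.3, 9.29, 9.33, 6.13 and 7.12 CPM, and in ox-LDL libraries 1 to 5 they were 109, 89.8, 90.6, 82.5 and 112 CPM. The ox-LDL libraries lay close together, all well above the controls. The mean rose from 9.03 ± 2.75 to 96.8 ± 13.0 CPM (log2 fold change 3.42, SE 0.23, adjusted p = 4.87e-06), which is 10.7-fold. By p-value Clec4n ranked 14 and Clec4e ranked 20 among all genes tested.

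Clec7a encodes Dectin-1, the beta-glucan receptor, which carries its own ITAM-like motif. Control libraries 1 to 5 held 2986, 1692, 1827, 2816 and 1332 CPM, and ox-LDL libraries 1 to 5 held 958, 3310.5, 1411, 1289 and 3085 CPM. Both groups spread widely and overlapped over most of their range. The log2 fold change was -0.08 (SE 0.40, adjusted p = 0.905), and its sign turned in 5 of the 10 fits that left out 1 library, so no direction can be given. Clec5a encodes MDL-1, a receptor that signals through DAP12. It was at 24.1 to 62.3 CPM in the controls and at 18.0 to 44.1 CPM in the ox-LDL libraries, and ox-LDL libraries 2 and 5 both lay above the lowest control, replicate 5. Its log2 fold change was -0.89 (SE 0.30, adjusted p = 0.0472), and without ox-LDL library 5 it was -1.18 (adjusted p = 0.00978 in edgeR's test).

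The genes of the DCIR subfamily (Clec4a2, Clec4a3 and Clec4a1) and Clec12a had negative log2 fold changes, of which those of Clec4a2 and Clec4a3 passed the test. Clec4a2 encodes DCIR, an ITIM-bearing receptor of macrophages and dendritic cells. Control libraries 1 to 5 held 337, 227, 175, 199.7 and 83.7 CPM, and ox-LDL libraries 1 to 5 held 38.6, 32.2, 11.8, 9.04 and 17.9 CPM. Each ox-LDL library was lower than each control, with ox-LDL libraries 3 and 4 the lowest. The mean fell from 205 ± 91.8 to 21.9 ± 12.9 CPM, or 9.35-fold (log2 fold change -3.23, SE 0.47, adjusted p = 0.00049). In the annotation of protein-coding transcripts, 6.49% of the 50-base words of Clec4a2 also occur in 67 other genes. Among them are Clec4a4 and Clec4b1, which had at most 0.609 and 6.03 CPM in any library. The levels of the rest were not examined. The other 9 members shared 0 such words with any other protein-coding gene of that annotation. Noncoding transcripts were not compared.

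Clec4a3, a close relative of Clec4a2, was at 169, 139.9, 91.8, 120.1 and 109.8 CPM in control libraries 1 to 5 and at 39.9, 34.7, 7.75, 6.94 and 20.2 CPM in ox-LDL libraries 1 to 5. The groups were again separate, and ox-LDL libraries 3 and 4 were again the lowest. The mean fell from 126 ± 29.6 to 21.9 ± 15.1 CPM, or 5.76-fold (log2 fold change -2.53, SE 0.47, adjusted p = 0.00214). Clec4a1, another gene of this subfamily, was at 22.9 to 57.2 CPM in the controls, whereas ox-LDL libraries 1 to 5 held 29.1, 8.99, 6.19, 5.74 and 51.7 CPM. Ox-LDL libraries 1 and 5 lay within the control range and the other 3 lay below it, and the log2 fold change of -0.95 (SE 0.57) did not pass (adjusted p = 0.246). Without ox-LDL library 5 it was -1.66 (adjusted p = 0.0342 in edgeR's test), and over all alternatives it ran from -1.66 to -0.71 with an adjusted p of 0.0325 to 0.4.

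Clec12a encodes MICL, an ITIM-bearing receptor that senses uric acid crystals. Control libraries 1 to 5 held 730.5, 427, 372, 513 and 259.6 CPM, and ox-LDL libraries 1 to 5 held 189, 329, 80.6, 84.1 and 295 CPM. Control library 5 lay below ox-LDL libraries 2 and 5, so the groups overlapped, and the log2 fold change was -1.24 (SE 0.43, adjusted p = 0.0542). Scaled by library size alone, it was -1.51 (adjusted p = 0.00654). Card9 was at 32.7 to 37.0 CPM in the controls and at 16.8 to 31.4 CPM in the ox-LDL libraries. These ranges did not overlap, and the log2 fold change of -0.50 (SE 0.18) had an adjusted p of 0.0549.

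**Figure D2:**
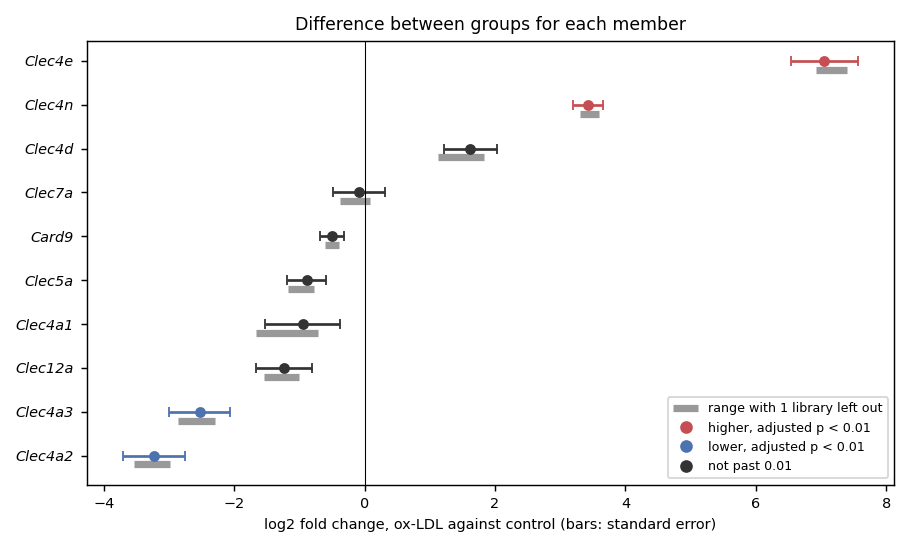
Log2 fold change of each of the 10 genes, ox-LDL against control, from edgeR's quasi-likelihood fit on 5 libraries per group. Points with bars are estimates with standard errors, and grey bands below them span the estimates with 1 library left out. Clec4e at 7.05 and Clec4n at 3.42 (red) rose, Clec4a2 at -3.23 and Clec4a3 at -2.53 (blue) fell, and the band of Clec7a spans 0.

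Levels can be compared between genes only on a scale that accounts for length, and the deposited FPKM values served for this. In the controls, Clec7a had the highest mean (1098 FPKM), and its range lay above that of Clec4d (508 FPKM). Clec4d, Clec12a (351 FPKM), Clec4a2 (168.5 FPKM) and Clec4a3 (113 FPKM) followed, each overlapping its neighbour. A gap separated them from Clec4a1, Clec4e (25.7 FPKM), Clec5a and Clec4n (9.57 FPKM), whose ranges overlapped in turn. In the ox-LDL libraries Clec4e came first with 2879 ± 1057 FPKM (n = 5). Clec4d (1256 ± 362 FPKM) and Clec7a (842 ± 271 FPKM) followed, each overlapping its neighbour. Clec12a (123 FPKM) and Clec4n (90.1 FPKM) came next, below the range of Clec7a, and then, below a second gap, Clec4a3, Clec4a2, Clec4a1 and Clec5a, all with means of 17.2 FPKM or less.

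Of the FPKM summed over the 9 receptors, Clec4e held 1.25 ± 1.01% in the controls and 53.8 ± 10.7% in the ox-LDL libraries. The share of Clec7a was 47.2 ± 3.97% in the controls and 16.1 ± 3.38% in the ox-LDL libraries, and that of Clec12a was 15.0 ± 1.53% and 2.57 ± 1.57%. Clec4d held 22.0 ± 2.27% and 24.5 ± 6.73%, so its share differed by less than the spread between the ox-LDL libraries. These shares are parts of 1 total and move together. The sum itself was 1707 to 2947 FPKM in the controls and 3321 to 6338 FPKM in the ox-LDL libraries. The summed FPKM of the 5 activating receptors (Clec4d, Clec4e, Clec4n, Clec5a and Clec7a) was 2.64 to 4.22 times that of the ITIM-bearing Clec4a2 and Clec12a in the controls and 15.4 to 85.6 times in the ox-LDL libraries. Clec4e supplied the greatest part of the activating sum in every ox-LDL library.

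**Figure D3:**
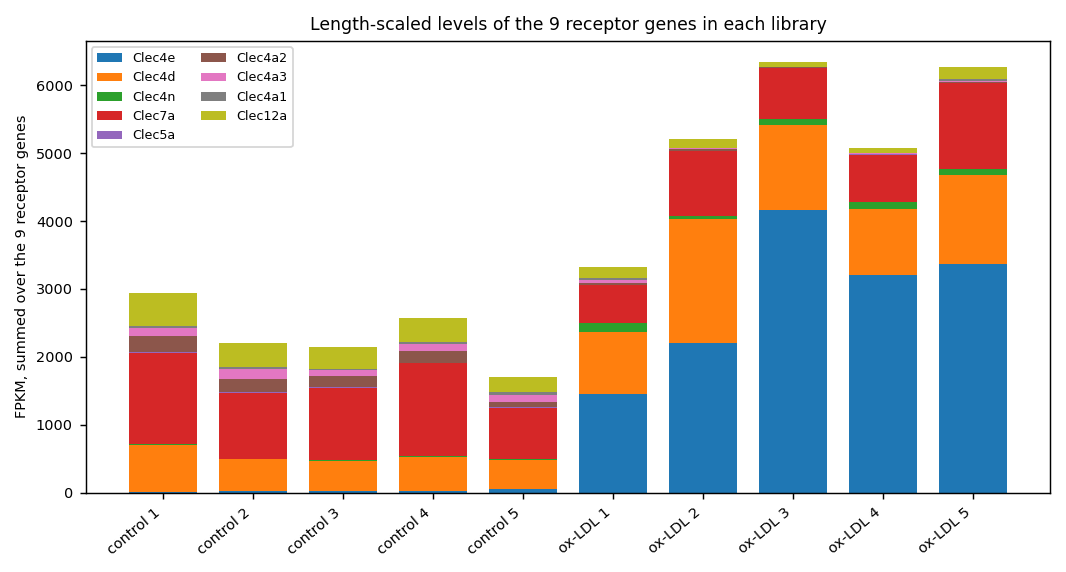
FPKM of the 9 receptor genes stacked in each of the 10 libraries. Each bar is 1 library and each colour is 1 gene. Clec7a is the largest segment in the controls (47.2% on average) and Clec4e in the ox-LDL libraries (53.8% on average), with sums of 1707 to 2947 and 3321 to 6338 FPKM.

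The partner genes Clec4e and Clec4d were also compared with each other within each library. The ratio of Clec4e to Clec4d FPKM in control libraries 1 to 5 was 0.0193, 0.0435, 0.0613, 0.0332 and 0.118, and in ox-LDL libraries 1 to 5 it was 1.60, 1.21, 3.32, 3.29 and 2.55. Clec4e was thus below Clec4d in every control and above it in every ox-LDL library. The mean log2 ratio was -4.45 ± 0.97 in the controls and 1.15 ± 0.65 in the ox-LDL libraries, a difference of 5.60 (exact permutation test, two-sided, p = 0.00794, the smallest that 252 arrangements allow, n = 5). The changes of both genes in these libraries were already known, so this p adds no support beyond them. The FPKM groups did not overlap for 6 of the 10 genes, against 16.7% of all genes, namely for Clec4a2, Clec4a3, Clec4d, Clec4e, Clec4n and Clec12a, each with the same exact permutation p of 0.00794 before any adjustment. The exact p was 0.0159 for Clec5a, 0.0794 for Clec4a1, 0.0952 for Card9 and 0.135 for Clec7a.

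Of 35 tested genes that act with these receptors, 6 passed the test, all of them higher, or 17.1%, a share near the 14.7% of all genes. Of 8 ITAM adaptors and proximal kinases, 1 rose and 0 fell, with a median log2 fold change of 0.38. At an unadjusted p below 0.05 in edgeR, 3 adaptors and kinases, 3 relay genes and 5 NF-kB and NFAT factors were higher and 1 of each list was lower, against 23.0% of all genes higher and 15.8% lower, and 0 of these lists fell in DESeq2 or limma-voom at 0.01. Src, a kinase that phosphorylates such motifs, rose from 2.66 ± 0.406 to 45.2 ± 22.8 CPM (log2 fold change 4.09, SE 0.38, adjusted p = 2.74e-05). Syk had a log2 fold change of 1.07 (adjusted p = 0.0278). The adaptor of Clec4e, Clec4d and Clec4n, Fcer1g, was at 0.49 (adjusted p = 0.423), a value that turned to -0.07 without ox-LDL library 2. With the length trend removed, Fcer1g was at 0.57 (adjusted p = 0.0238 in edgeR). Tyrobp, the partner of Clec5a, was at -1.20 (adjusted p = 0.0683) and without ox-LDL library 2 at -1.90 (adjusted p = 0.000241). It stayed uncalled at 0.01 in 17 of 24 alternatives and was lower past 0.01 in the rest. Among these were edgeR with the length trend removed (-1.16, adjusted p = 0.000106) and with library size alone (-1.55, adjusted p = 0.00194), and the limma fits on FPKM.

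Of 12 genes that relay the signal to and from Card9, 11 were tested, 2 rose and 0 fell (median log2 fold change 0.09). Malt1, the protease of the Card9 complex, rose from 73.2 ± 17.1 to 466 ± 287 CPM (log2 fold change 2.67, SE 0.45, adjusted p = 0.00121). Traf6, a ubiquitin ligase downstream of it, had a log2 fold change of 1.14 (SE 0.27, adjusted p = 0.00825), which was no longer past 0.01 in 8 of the 10 fits that left out 1 library and kept its call in 7 of 24 alternatives in all, with a range of 0.72 to 1.27 and an adjusted p of up to 0.259. Bcl10, the third protein of the complex, was at 46.8 ± 3.48 and 42.3 ± 4.09 CPM (log2 fold change -0.14, adjusted p = 0.495), and Vav1 was at 0.98 (adjusted p = 0.0135). The fold changes within the Card9, Bcl10 and Malt1 complex thus ran from -0.50 to 2.67 on the log2 scale.

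Of 8 NF-kB and NFAT factors, Nfkb2 (log2 fold change 2.28, adjusted p = 0.00345) and Relb (1.57, adjusted p = 0.000186) rose and 0 fell, with a median of 0.71. The call of Nfkb2 held in 16 of 24 alternatives. It was lost without control library 1, 2, 3 or 4 (adjusted p up to 0.0119 in edgeR), with a filter of at least 1 count in any library (0.0128) and in the limma fits on FPKM, where it ran down to 1.44 with an adjusted p of up to 0.0998. Rela was at 1.03 (adjusted p = 0.0290) and Nfkb1 at 0.97 (adjusted p = 0.0330). Of 6 phosphatases and ubiquitin ligases that restrain the pathway, 0 passed at 0.01 in either direction in edgeR's test, in DESeq2 or in limma-voom, 0 had an unadjusted p below 0.05 in edgeR, and their log2 fold changes ran from -0.00 to 0.67. Of the factors known for the Mincle and Dectin-1 genes, Cebpb, which encodes C/EBPβ, rose from 57.6 ± 11.7 to 263.5 ± 102 CPM (log2 fold change 2.19, SE 0.30, adjusted p = 0.000276), whereas Spi1, which encodes PU.1, was at -0.31 (adjusted p = 0.344).

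**Figure D4:**
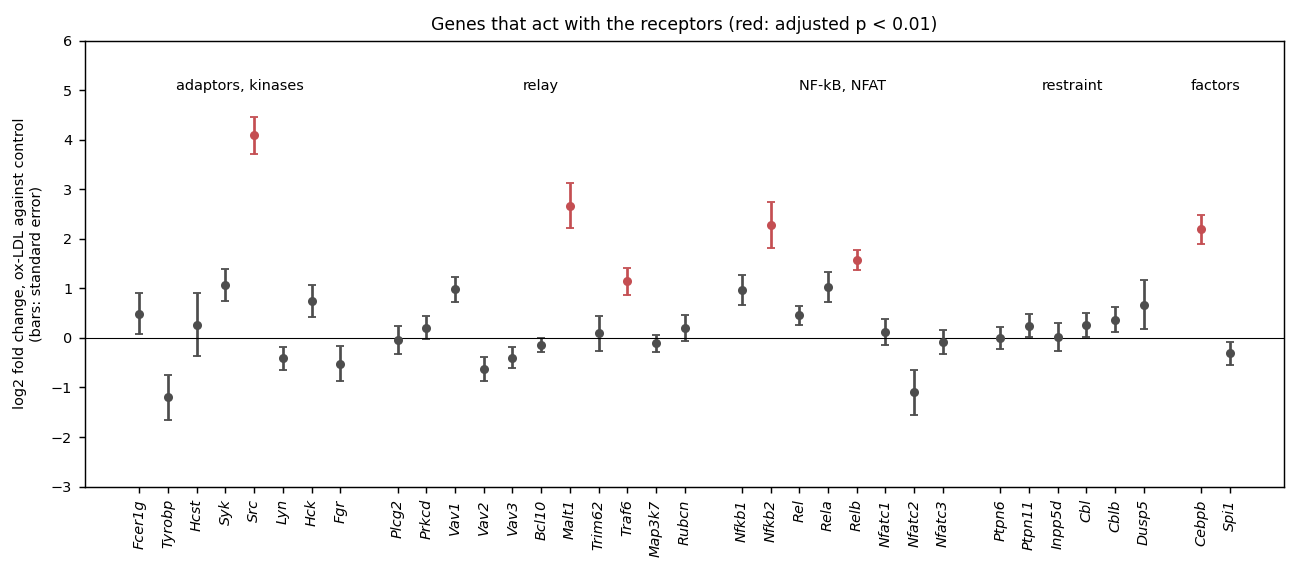
Log2 fold change, ox-LDL against control, of the tested genes that act with the receptors, grouped as adaptors and kinases, relay, NF-kB and NFAT factors, restraint and transcription factors (points with standard errors, n = 5 per group). Red points passed an adjusted p of 0.01: Src at 4.09, Malt1 at 2.67, Traf6 at 1.14, Nfkb2 at 2.28, Relb at 1.57 and Cebpb at 2.19.

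Of 22 other C-type lectin genes, 12 were tested, and 3 were called higher and 4 lower, against 9.40% and 5.35% of all genes. Of these 7, only Olr1, Ly75 and Mrc1 reached the count filter in every library of both groups. Olr1, which encodes the ox-LDL receptor LOX-1, rose from 1.10 ± 0.416 to 62.1 ± 45.1 CPM (log2 fold change 5.81, SE 0.62, adjusted p = 6.16e-05). Named after their values were seen, Ly75 rose (2.93, adjusted p = 1.59e-05) and the mannose receptor Mrc1 fell (-2.24, adjusted p = 0.000169). The other 4 passed the filter only because of the group in which they were high, so they had to differ, and their counts are given without a test. Clec4b1, a gene of the Clec4 cluster, had 46 to 109 counts in the controls and 0 to 4 in the ox-LDL libraries. Clec10a, a galactose-type lectin of macrophages, had 78 to 213 and 3 to 19. Clec1a had 15 to 42 in the controls and 0 in every ox-LDL library, a log2 difference of -2.91 or lower with those libraries set at 3 counts each. Clec9a, also named after its values were seen, had 5 to 11 and 16 to 42.

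The genes whose profile over the 10 libraries was most like that of a member were taken as those with the smallest root mean square difference of centred log2(CPM + 1). For Clec4e these were Fpr2 (0.46), Gbp2 (0.49) and Tgtp2 (0.51), of which Tgtp2 has a near-identical copy. For Clec4d they were Tmbim4 (0.16), Psma5 (0.18) and Ccl4 (0.20), and for Clec4n they were Gm4070 (0.32), a gene without a symbol (0.33) and Mlkl (0.37). Arhgap15 was among the nearest for both Clec4a2 (0.45, with Ifitm6 at 0.44 and Echdc3 at 0.47) and Clec4a3 (0.39, with Lpar6 at 0.35 and Cnr2 at 0.45). Clec4a1 was nearest to Rassf2 (0.43), Nrros (0.59) and Nt5dc2 (0.60), Clec5a to Tmem171 (0.26), Txnip (0.31) and Tpm2 (0.31), and Clec12a to Gpr160 (0.30), Gm35231 (0.31) and Gm36496 (0.31). For Card9 the nearest were Hars2 (0.11), Lmln (0.12) and Tada3 (0.12), and for Clec7a they were Abracl (0.18), Arf5 (0.24) and Clic1 (0.25).

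Depth was even, with total estimated counts of 20094647 to 20687289 in the controls and 19257131 to 20358017 in the ox-LDL libraries. The TMM factor was 0.593 in ox-LDL library 2 and 0.837 to 1.19 in the other 9. Macrophage markers (8 of 8 found) summed to 19700 to 46800 CPM in the controls and 12500 to 47900 CPM in the ox-LDL libraries, mostly Lyz2 (17500 to 44700 CPM in the controls), and 2 of them were called, Adgre1 (log2 fold change 2.07, adjusted p = 0.000287) and Cd14 (2.24, adjusted p = 0.000846). Since several receptors are also expressed by neutrophils and monocytes, markers of those cells were read beside them. Neutrophil markers (9 of 10 found) summed to 19.7 to 38.3 CPM in the controls and 20.3 to 156 CPM in the ox-LDL libraries. S100a8 was higher (5.39 to 14.2 against 10.8 to 152 CPM, log2 fold change 2.76, adjusted p = 0.0031), Mmp8 was at 5.41 to 31.5 and 2.31 to 9.75 CPM (-1.25, adjusted p = 0.067), and the other 7 were at or below 1.78 CPM in every library, with S100a9, Mpo and Elane at or below 0.348 CPM. Monocyte markers (5 of 5 found) summed to 19.5 to 226 and 15.1 to 352 CPM, with Ccr2 lower at a log2 fold change of -4.41. Mesothelial and stromal markers summed to 4.96 to 18.4 and 21.1 to 64.0 CPM. In edgeR's test Col1a1 (log2 fold change 2.72, adjusted p = 0.0012) and Col1a2 (2.40, adjusted p = 0.00248) were called higher. Col3a1 was not called (0.60, adjusted p = 0.32). Markers of mast cells and eosinophils summed to 2.52 to 8.19 and 0.536 to 2.33 CPM, with Siglecf at 2.18 to 7.30 and 0.239 to 0.856 CPM. Markers of dendritic cells, B cells and of T and NK cells stayed at or below 2.96 CPM in sum. The part of such cells in the receptor differences was not tested.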

How the data were processed

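RNA-seq libraries of 5 control and 5 ox-LDL samples were analysed, grouped by their labels. Estimated counts for each gene, not normalized, were deposited by the authors in 1 table, and a value scaled for gene length was deposited for every gene in a file per library. The submitters' processing notes name FastQC, HISAT2 2.0.5, SAMtools 1.4, StringTie 1.3.3.13 and the build mm9, and the counting step, its strand setting and the unit of the second file are not given in the sources used here. The length implied by counts and second values was nearly constant for most genes, so the deposited values were treated as FPKM. Among the members, the implied length varied between libraries for Clec4e, Clec4a2, Clec4n and Card9. Of the count values, 13.6% were not whole, and all were rounded.

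Rows of 9788 circular RNAs were left out. The other rows were filtered with filterByExpr, normalized by TMM and tested in edgeR 4.0.16 (R 4.3.3) by the robust quasi-likelihood test with Benjamini-Hochberg adjustment over 12654 genes, with an adjusted p below 0.01 as the threshold. The biological coefficient of variation was 37.3%. FPKM were compared by exact two-sided permutation tests. CPM are TMM-normalized. Members, lists and tests were chosen with earlier results of these data known. Named genes were all members, the up to 4 genes of each list with the largest change past the threshold, genes of the adaptor, relay and NF-kB lists whose role needed it, and the 3 nearest profiles of each member. Gene symbols and promoter windows came from RefSeq (GRCm38.p6), and coordinates from the NCBIM37 annotation. The closest replicates (control libraries 2 and 3) differed by a chi-square of 10.5 per gene, so no library was counted as a duplicate. Alternatives were DESeq2 1.42.0, limma-voom and limma 3.58.1 on log2(FPKM + 1) and log2(FPKM + 0.1), other scalings, filters and thresholds, removal of the trend on gene length, a replicate block and each library left out. The procedures were tested on simulated data.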

Additional observations from a re-analysis of the deposited data

Results flagged for a closer look

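The spread within each group was examined for every member, 20 groups in all, of which about 1 is expected by chance to hold a library apart from the others, and 2 did. The Clec4e level of control library 5 was 97.4 CPM, next to 51.0 CPM in the library nearest to it, a gap of 0.728 of the range of its group, with 0.71 as the limit for 5 samples. Clec4e had a log2 fold change of 7.40 when it was left out. The Clec5a level of ox-LDL library 5 was 44.1 CPM, next to 25.3 CPM, a gap of 0.722 of the range, and without it Clec5a passed the threshold.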

How the results depend on the processing

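The calls of Clec4e (6.79 to 7.40 on the log2 scale), Clec4n (3.09 to 3.63), Clec4a2 (-3.53 to -2.98) and Clec4a3 (-3.03 to -2.30) held in all 24 alternative fits, and Clec4a1 and Card9 passed 0.01 in none of them. Clec4d passed 0.01 with DESeq2 (1.64), limma-voom (1.51), library size alone (1.31), at least 1 count in any library (1.56), the length trend removed (1.63), log2(FPKM + 1) (1.28, also without a filter) and log2(FPKM + 0.1) (1.28). With 1 library left out it ran from 1.13 to 1.83 and passed only without ox-LDL library 1 or 2. It stayed uncalled in 13 of the 24 fits. Clec12a passed with library size alone (-1.51), log2(FPKM + 1) (-1.59) and log2(FPKM + 0.1) (-1.60). With 1 library left out, Clec5a ran from -1.18 to -0.77 and Clec7a from -0.38 to 0.09. Fcer1g ran from -0.07 (without ox-LDL library 2) to 0.66. The cause of these changes was not tested.

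Against 1189 genes higher, library size alone gave 704, log2(FPKM + 1) 555, without a filter 472, log2(FPKM + 0.1) 543, an adjusted p below 0.05 2045, an absolute log2 fold change above 2 605, and 1 library left out 826 to 1755. Against 677 lower, DESeq2 gave 1244, the length trend removed 1230, an adjusted p below 0.05 1320, an absolute log2 fold change above 2 244, and 1 library left out 436 to 1502. Of the fits with 1 library left out, that without ox-LDL library 2 gave the highest count in both directions. Genes called higher were 63.7% of calls, 42.5% with log2(FPKM + 1), 54.7% with library size alone and 54.2% with the upper quartile, and the median log2 fold change of all genes, 0.10, was -0.14, -0.09 and -0.05 in these.

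Deviations of libraries with the same replicate number correlated at -0.42 to 0.51, and those of control library 4 and ox-LDL library 2 at 0.60. Both of the latter libraries had a negative relation to gene length (Spearman rho -0.49 and -0.66). As the deviations also carry this length trend, their correlation cannot decide whether the numbers pair the libraries. The replicate block gave 885 higher and 549 lower genes and changed no call of a member (Clec4d 1.49, adjusted p = 0.0467, edgeR). With the block and the length trend removed, 1232 were lower and Clec4d passed (1.59).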
